A study of Mus musculus with 6 samples.

Results

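The genes described here are 10 genes of calcium handling in the sarcoplasmic reticulum and at the surface of the heart muscle cell: Sln, Pln, Atp2a2, Ryr2, Casq1, Casq2, Trdn, Slc8a1, Cacna1c and Cacnb2. They were chosen by their function, with earlier results of these data known. Each was read from the transcript clusters of the array annotated with its symbol alone. A transcript cluster is the set of probes that the array summarises into 1 value. All 10 were found, among 19933 named genes. 8 of them have 1 cluster, Slc8a1 has 2 and Trdn has 19, and in these 2 genes the brightest cluster, by its mean signal, is used for the gene. E12.5 mouse hearts labelled knockout (KO) for β1 integrin were set against wild-type (WT) hearts of that age, with 3 samples of each genotype, called hearts below, on Affymetrix Mouse Gene 1.0 ST arrays. β1 integrin is the shared β chain of many matrix receptors and is encoded by Itgb1. The labels name no strain, no allele, no Cre driver and no sex, and give no number of hearts per sample. All values are deposited log2 signals, and differences are KO minus WT on that log2 scale.

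In each heartbeat, calcium enters the muscle cell through the L-type channel, whose pore is encoded by Cacna1c and whose cytosolic β subunit is encoded by Cacnb2. That entry opens the ryanodine receptor encoded by Ryr2, and calcium leaves the sarcoplasmic reticulum, where it is buffered by the calsequestrins (Casq1, Casq2) and where triadin (Trdn) links calsequestrin to the release channel. The pump encoded by Atp2a2 returns calcium to the store, and the small membrane proteins phospholamban (Pln) and sarcolipin (Sln) inhibit that pump. The sodium-calcium exchanger encoded by Slc8a1 carries calcium out of the cell. In the mouse heart sarcolipin is known as an atrial gene and phospholamban is most abundant in the ventricle, while Casq1 is best known from skeletal muscle and Casq2 from the heart.

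The array medians lay between 6.65 and 6.71, and the number of arrays limits the precision: the median standard error of a KO minus WT difference over all clusters was 0.11. Itgb1 itself had 11.53, 11.42 and 11.65 in KO hearts, against 11.76, 11.80 and 11.78 in WT hearts. The difference of Itgb1 was -0.25, or 84.0% of the WT signal, and its KO hearts lay wholly below the WT hearts, as 6.61% of all clusters did. Limma's unadjusted p was 0.0235 and its adjusted p 0.797, so the targeted gene gives only a weak check of the labels. Whether the array's probes lie outside the deleted part was not tested. The array with the most of these genes at their lowest value was KO replicate 1, with 6 of the 10. That heart also had the highest erythroid marker mean, at 9.96, against 8.44 and 8.53 in the other KO hearts and 8.31 to 8.81 in WT hearts.

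Sln was the 1 gene of the 10 with a higher mean in KO hearts, and the other 9 had means between 0.01 and 0.22 lower. None of the 10 passed limma's test over all 28767 clusters, where the share called at an adjusted p under 0.05 was 0%. Sln (higher) and Cacnb2 (lower), 2 of the 10, had an unadjusted p below 0.05, as had 5.93% of all clusters. Sln stayed under 0.05 in all 14 of its alternative fits, Cacnb2 in 5 of 14, and Trdn came under it in 2 of 15, with array weights and without WT replicate 3. The same 2 genes were those whose KO and WT values did not overlap. The share of all clusters with no overlap was 12.6%, of which KO was higher in 6.01% and lower in 6.61%. A count of 2 in so small a set is given as a description of these genes. The median difference of the 10 genes was -0.06 and that of all clusters -0.01, and 53.4% of all clusters had a lower mean in KO hearts. Of the cardiomyocyte markers, 9 of 12 also had lower means in KO hearts, with the troponin gene Tnnt2 at -0.07 and the α-actinin gene Actn2 at -0.09. Their mean differed by -0.08, and centring the arrays on it adds that amount to every gene, which takes the lower means of Atp2a2, Ryr2, Casq2, Slc8a1 and Cacna1c to 0 or just above it. With cyclic loess the difference of Casq2 turned too.

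**Figure D1:**
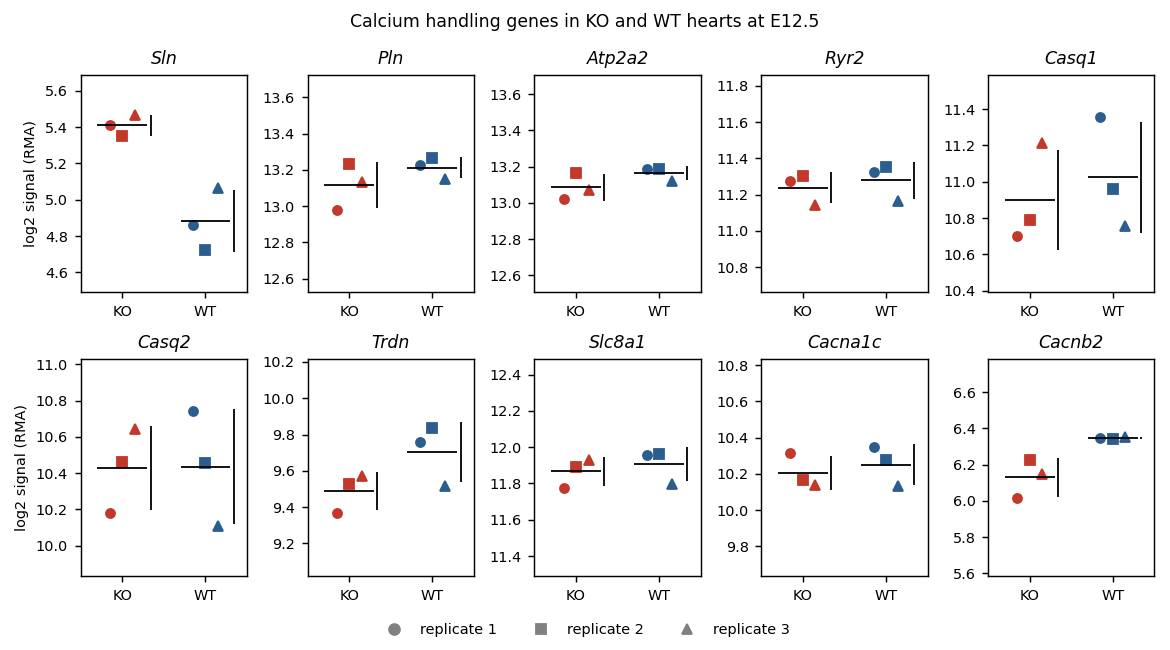
Log2 signal (vertical axes, each spanning the same range) of the 10 calcium handling genes in 3 KO hearts (red, left) and 3 WT hearts (blue, right). Symbols mark the replicate, horizontal lines the mean and vertical bars 1 SD. The groups are apart for Sln, at 5.35 or above in KO and 5.06 or below in WT hearts, and for Cacnb2, at 6.23 or below in KO and 6.34 or above in WT hearts.

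Sarcolipin was read by 1 cluster of low signal. Sln had 5.41, 5.35 and 5.47 in KO hearts, against 4.86, 4.73 and 5.06 in WT hearts. All 3 KO hearts lay above all 3 WT hearts, with a gap of 0.29 between the nearest of them, and the KO hearts lay closer together than the WT hearts. Sln averaged 5.41 ± 0.06 in KO hearts and 4.88 ± 0.17 in WT hearts (SD, n = 3 each). The difference was 0.53 ± 0.11 (SE), a fold of 1.44 with a 95% interval of 1.22 to 1.71 (limma adjusted p = 0.797). 38 of the 28767 clusters had a p as low as that of Sln or lower. Leaving out any 1 heart gave differences of 0.45 to 0.62, and the value without KO replicate 1 was again 0.53. In mean signal, Sln stood at the 24.4th percentile of all clusters. The deposited values carry no detection call, so whether a signal of this size lies above the array's background was not tested, and RMA compresses differences at low signal.

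Phospholamban, the other inhibitor of the pump, and the pump itself had small differences with overlap. Pln had 12.98, 13.23 and 13.14 in KO hearts, against 13.23, 13.27 and 13.15 in WT hearts. KO replicate 2 lay within the WT range, and the other KO hearts lay below it. The difference was -0.10 ± 0.10 (SE), with a 95% interval of -0.32 to 0.12 (limma adjusted p = 0.861), and it was -0.03 without KO replicate 1. The pump gene Atp2a2 had 13.02, 13.17 and 13.07 in KO hearts, against 13.19, 13.18 and 13.12 in WT hearts. As for Pln, KO replicates 1 and 3 lay below all WT hearts and KO replicate 2 did not. Its difference was -0.08 ± 0.08 (SE), with an interval of -0.27 to 0.11 (adjusted p = 0.868), and 0.00028 after centring on the cardiomyocyte markers. At the upper end of these intervals Pln would be 1.09-fold and Atp2a2 1.08-fold the WT level, both below the lower bound of 1.22-fold for Sln. The intervals are not adjusted for the number of clusters tested. Pln and Atp2a2 both stood at the 99.5th percentile of mean signal, and whether differences are compressed at so high a signal was not tested.

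Sln was then set against Pln, Atp2a2 and the atrial markers on the same array. Such a within-array difference asks whether features changed unequally, and says nothing of which transcript is more abundant. Relative to the WT mean, Sln minus Pln stood at 0.76, 0.45 and 0.66 in KO replicates 1 to 3, against -0.04, -0.21 and 0.25 in WT replicates 1 to 3. The KO hearts all lay above the WT hearts, by 0.20 at the nearest, and the KO minus WT difference was 0.62 ± 0.16 (SE), or 1.54-fold. Sln minus Atp2a2 differed by 0.61 ± 0.14 (SE) and Sln minus the mean of 10 atrial markers by 0.47 ± 0.10 (SE), both without overlap. Pln minus Atp2a2 differed by -0.02 ± 0.04 (SE), with overlap. The exact two-sided permutation p was 0.1 for each of the 3 differences that hold Sln, the lowest value that this design allows, and 0.8 for Pln minus Atp2a2. Adjusted over these 4 differences, p was 0.133 for those with Sln and 0.8 for the last, so none passed 0.05 and none could have. Sln enters 3 of the 4, which are therefore not independent.

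**Figure D2:**
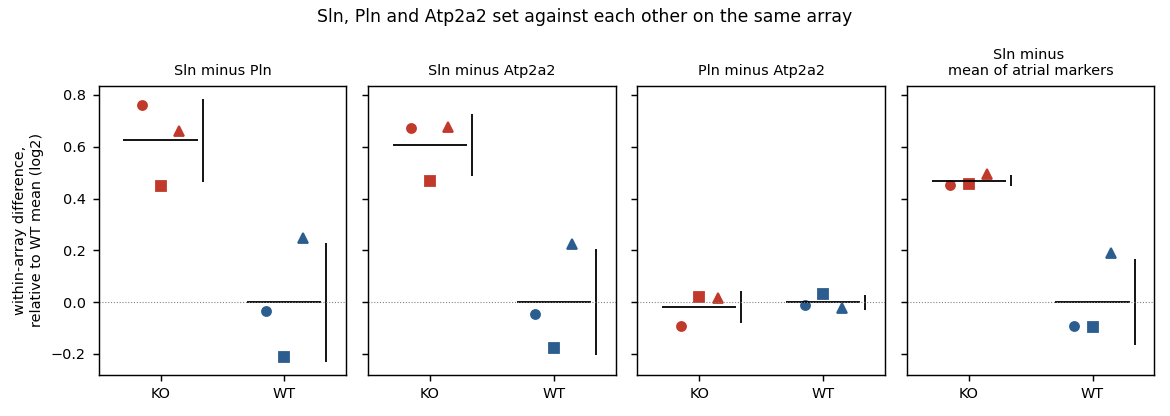
Difference of 2 log2 signals on the same array, relative to the WT mean (vertical axis), for Sln minus Pln, Sln minus Atp2a2, Pln minus Atp2a2 and Sln minus the mean of 10 atrial markers, in KO (red, left) and WT hearts (blue, right). Circles, squares and triangles are replicates 1, 2 and 3, horizontal lines means and vertical bars 1 SD. KO hearts lie above WT hearts in the 3 panels that hold Sln, with mean differences of 0.62, 0.61 and 0.47, and overlap with them for Pln minus Atp2a2.

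Markers of the chambers and of other muscle were read beside Sln. The mean of the 10 atrial markers was 9.60, 9.54 and 9.62 in KO hearts, against 9.60, 9.47 and 9.52 in WT hearts. 7 of the 10 had higher and 3 had lower means in KO hearts. The groups did not overlap for Nppa, which encodes atrial natriuretic peptide (difference 0.16), nor for the atrial light chain gene Myl4 (-0.16). The atrial light chain gene Myl7 stood at 0.07, with overlap. Of 8 ventricular markers 6 had lower and 2 higher means. The ventricular light chain gene Myl2 differed by -0.09 and the ventricular transcription factor gene Irx4 by -0.28. The 2 with higher means were Hey2 (0.16) and Kcne1 (0.21). The groups did not overlap for Kcne1, nor for Myl3 (-0.21), beside 6.01% and 6.61% of all clusters in these directions. The mean of 10 skeletal muscle markers was 5.96 to 6.40 in KO hearts and at most 6.11 in WT hearts, with overlap. 7 of these 10 genes had higher and 3 lower means. The embryonic myosin gene Myh3 was picked out after its values were seen. It had 5.39, 5.27 and 7.17 in KO hearts, against 5.17, 5.22 and 5.26 in WT hearts, with its high value in KO replicate 3. The defining factors Myod1 and Myog stood at 6.20 to 6.47 and 5.33 to 6.24 in KO hearts, and at 6.01 to 6.31 and 5.42 to 5.94 in WT hearts. Both lay below the median of all clusters, 6.67. Higher and lower means numbered 2 and 3 for sinus node, 2 and 5 for endothelial, 6 and 2 for mesenchyme and epicardium, 4 and 2 for smooth muscle, 5 and 1 for macrophage and 6 and 0 for erythroid markers, of which none passed limma's adjusted test. Without KO replicate 1 the erythroid counts were 1 and 5. 2 of these list means separated the genotypes, as Sln did. The macrophage mean was 7.26, 7.43 and 7.31 in KO hearts, against 7.23, 7.17 and 7.13 in WT hearts. Its 6 genes did not move alike, with differences from -0.40 for Lyz2 to 0.73 for Mpeg1. 2 of the 6 lay wholly above the WT hearts and 0 wholly below, beside 6.01% and 6.61% of all clusters. The endothelial mean was 9.84, 9.83 and 9.84 in KO hearts, against 9.96, 9.91 and 9.88 in WT hearts. Differences of its genes ran from -0.22 to 0.08. The part of chamber proportions, of other muscle or of macrophages and endothelium in the Sln value was not tested. How far the 10 atrial markers are confined to the atria at this age was not tested either. The within-array difference above therefore sets Sln against the mean of that list only. In whole hearts, fewer cells of a type and less RNA per cell cannot be told apart.

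The release channel and the calsequestrins varied between hearts more than between genotypes. Ryr2 had 11.28, 11.30 and 11.14 in KO hearts, against 11.33, 11.35 and 11.16 in WT hearts. Replicate 3 was the lowest of each genotype, and the groups overlapped. The difference was -0.04 ± 0.09 (SE), with a 95% interval of -0.26 to 0.18 (limma adjusted p = 0.939). Casq1 had 10.70, 10.79 and 11.22 in KO hearts, against 11.36, 10.96 and 10.76 in WT hearts. Casq2 had 10.18, 10.46 and 10.64 in KO hearts, against 10.74, 10.46 and 10.11 in WT hearts. For both calsequestrins KO replicate 3 and WT replicate 1 were high, and KO replicate 1 and WT replicate 3 were low within their genotype. The differences were -0.12 ± 0.19 (SE) for Casq1 and -0.01 ± 0.18 (SE) for Casq2, with intervals of -0.56 to 0.31 and -0.43 to 0.41, the widest of the 10 genes. As folds, these intervals run from 0.68 to 1.24 and from 0.74 to 1.33, so the values are compatible with changes in either direction within them. Casq1 stood at 0.04 without WT replicate 1, and Casq2 at 0.14 without that heart and -0.17 without WT replicate 3.

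The promoters of the calsequestrin genes are shown, with that of Pln, the gene set against Sln. The sequences run from 250 bases before to 50 after the annotated start, from RefSeq on mouse build GRCm38.p6, and 7 of the 10 genes matched that table. Casq1 is at chr1:172219846-172220145 on the minus strand, Casq2 at chr3:102086165-102086464 on the plus strand and Pln at chr10:53337436-53337735 on the plus strand. Capitals mark matches, on either strand, to the MEF2 consensus, the CArG box and 4 GATA words, that is GATA after A or T and before A or G.
Casq1: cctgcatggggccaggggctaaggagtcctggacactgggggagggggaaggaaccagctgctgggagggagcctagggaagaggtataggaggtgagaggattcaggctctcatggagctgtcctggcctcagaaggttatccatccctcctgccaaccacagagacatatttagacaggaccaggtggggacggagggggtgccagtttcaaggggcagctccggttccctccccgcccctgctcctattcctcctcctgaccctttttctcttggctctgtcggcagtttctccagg
Casq2: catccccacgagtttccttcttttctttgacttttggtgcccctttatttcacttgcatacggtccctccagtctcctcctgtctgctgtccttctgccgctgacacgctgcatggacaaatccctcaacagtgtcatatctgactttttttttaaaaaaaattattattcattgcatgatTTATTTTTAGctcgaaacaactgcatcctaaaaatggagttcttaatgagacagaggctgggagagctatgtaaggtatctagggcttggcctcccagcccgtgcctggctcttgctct
Pln: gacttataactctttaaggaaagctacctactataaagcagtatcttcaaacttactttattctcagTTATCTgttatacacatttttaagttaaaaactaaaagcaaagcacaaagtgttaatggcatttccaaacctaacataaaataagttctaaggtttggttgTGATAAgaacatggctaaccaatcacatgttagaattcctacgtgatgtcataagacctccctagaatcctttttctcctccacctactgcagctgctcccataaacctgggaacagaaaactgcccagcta
Casq2 held 1 match to the MEF2 consensus, a word bound by a family of muscle transcription factors, which 3.19% of 32851 promoters of this length hold. Pln held 2 GATA words, 1 on each strand, and 29.8% of the promoters hold at least 1 of the 4 words. Casq1 held none of these, and none of the 3 held a CArG box, which occurs in 1.63% of promoters. The E-box word CANNTG, not marked, occurred at 2 places in each of the 3, a word that 72.3% of promoters hold. Matches describe these letters only.

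Triadin was read by 19 clusters that carry its symbol alone, with mean signals from 2.46 to 9.60. Their positions along the transcript were not used. In the brightest cluster Trdn had 9.37, 9.53 and 9.57 in KO hearts, against 9.76, 9.83 and 9.52 in WT hearts. KO replicate 1 lay below all WT hearts, and the other KO hearts lay just above WT replicate 3. The difference was -0.21 ± 0.11 (SE), or 86.2% of the WT signal, with a 95% interval of -0.47 to 0.04 (limma adjusted p = 0.797). It ranged from -0.15 without WT replicate 2 to -0.31 without WT replicate 3. Of the 19 clusters 18 had a lower and 1 a higher mean in KO hearts, with a median of -0.25 and a range of -0.71 to 0.05. 2 of the 19 lay wholly below WT, beside 6.61% of all clusters, and 0 wholly above. Among the 10 clusters at or above the median signal of the array, 9 were lower, with a median of -0.21. None of the 19 passed limma's adjusted test, and 4 had an unadjusted p under 0.05, beside 5.93% of all clusters. These clusters read 1 transcript unit in the same 6 hearts, so they are repeated readings and not independent support.

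**Figure D3:**
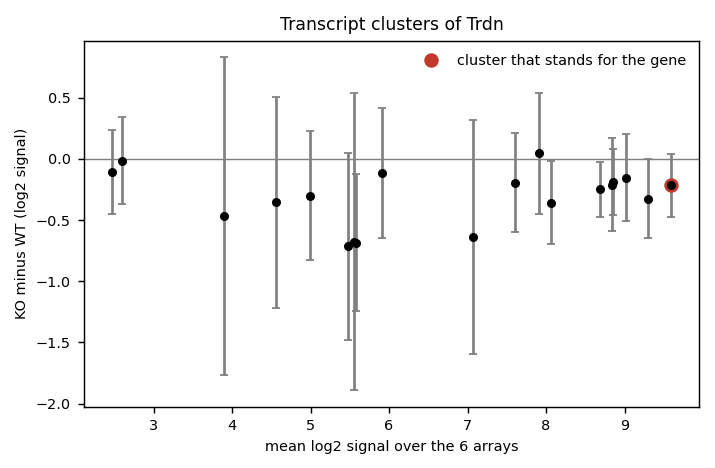
KO minus WT difference in log2 signal (vertical axis) of the 19 transcript clusters of Trdn against their mean log2 signal over the 6 arrays (horizontal axis), with limma's 95% intervals as bars. 18 of the 19 points lie below 0, and the brightest cluster, in red, lies at -0.21.

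The exchanger and the L-type channel pore gave small differences. Slc8a1 had 11.78, 11.89 and 11.93 in KO hearts, against 11.96, 11.96 and 11.80 in WT hearts. The groups overlapped, and the difference was -0.04 ± 0.09 (SE), with an interval of -0.25 to 0.17 (limma adjusted p = 0.939). The second cluster of Slc8a1 had 9.64, 10.20 and 10.61 in KO hearts, against 10.42, 10.59 and 10.19 in WT hearts, a difference of -0.25 ± 0.23 (SE). KO replicate 1 was its lowest heart. Cacna1c had 10.31, 10.16 and 10.14 in KO hearts, against 10.35, 10.27 and 10.13 in WT hearts. Every KO heart lay within the WT range, and the difference was -0.05 ± 0.10 (SE), with an interval of -0.27 to 0.18 (adjusted p = 0.932).

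The β subunit gene of the L-type channel was the 1 gene of the 10 that was lower in all KO hearts. Cacnb2 had 6.02, 6.23 and 6.15 in KO hearts, against 6.35, 6.34 and 6.35 in WT hearts. The WT hearts lay within 0.01 of each other, and the nearest KO heart lay 0.11 below them. Cacnb2 averaged 6.13 ± 0.11 in KO hearts and 6.35 ± 0.01 in WT hearts (SD, n = 3 each), a difference of -0.22 ± 0.09 (SE) or 86.0% of the WT signal. Limma's adjusted p was 0.797, and the difference was -0.16 without KO replicate 1. This cluster stood at the 43.7th percentile of all clusters in mean signal. The annotation pairs it with a single cDNA accession and no RefSeq transcript, so which Cacnb2 transcripts it reads is unknown.

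**Figure D4:**
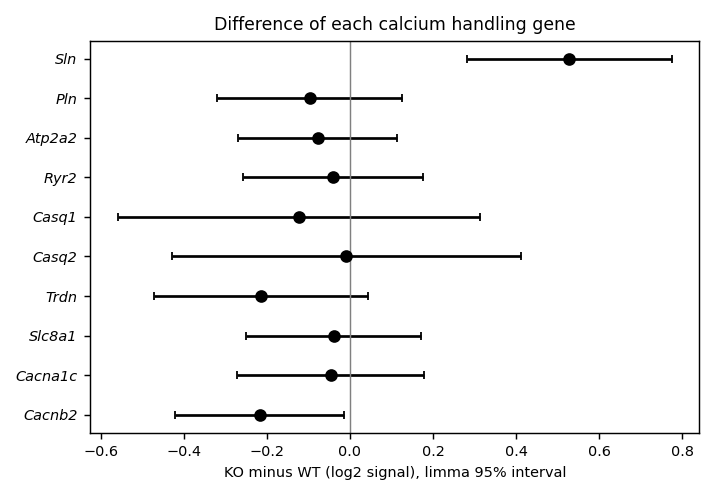
KO minus WT difference in log2 signal (horizontal axis) of the 10 calcium handling genes, with limma's 95% intervals as bars. The interval of Sln lies above 0 (0.28 to 0.77), that of Cacnb2 lies below it (-0.42 to -0.01), and the other 8 cross 0. The intervals are not adjusted for the number of clusters tested.

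Of the 36 pairs of genes other than Sln, 34 had a positive and 2 a negative Pearson r across the 6 hearts. The share of positive pairs among other genes was not computed, so whether this count is particular to the set was not tested. The 9 pairs with Sln, all negative, are not read further. The values of Sln fall into the 2 genotypes, though these pairs count in the adjustment. The values of Cacnb2 fall into the 2 genotypes too, but its pairs are kept in these counts. Pln and Atp2a2 had the highest pooled r (r = 0.954, exact permutation p = 0.00556, rho = 0.829, exact permutation p = 0.0583, n = 6), and r was 0.927 without the 2 hearts farthest from the median of Pln. Casq1 and Casq2 had r = 0.907 (exact permutation p = 0.025) and rho = 0.886 (exact permutation p = 0.0333), with r = 0.712 without the 2 farthest hearts. Casq2 and Slc8a1 had r = 0.889 (exact permutation p = 0.0361) but rho = 0.6 (exact permutation p = 0.242), with r = 0.838 without the 2 farthest. Trdn and Slc8a1 had r = 0.867 (exact permutation p = 0.0403), with r = 0.792 without the 2 farthest. Their order was the same in all 6 hearts (rho = 1, exact permutation p = 0.00278). Adjusted over the 45 pairs, these p-values were 0.236 for each r, and 0.375, 0.375, 0.453 and 0.125 for rho, so none passed. With the genotype means removed, r was 0.948, 0.932, 0.917 and 0.978 for these pairs. Other pairs went the other way on that removal. Cacna1c and Cacnb2 stood at -0.59 and Pln and Cacna1c at -0.26, and Atp2a2 and Cacna1c turned from 0.13 to -0.05. Each genotype alone has too few hearts for a correlation. The pairs share their arrays, on which the mean of the cardiomyocyte markers was 12.21, 12.38 and 12.32 in KO hearts, against 12.41, 12.37 and 12.36 in WT hearts.

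The genes most like Sln over the 6 arrays, by Pearson r among 10845 named genes at or above the median signal, were Plaur (0.987), Fxyd6 (0.985), Kmt2a (0.983), Arnt2 (0.978) and Piezo2 (0.977). Plaur encodes the urokinase receptor, Fxyd6 a regulator of the sodium pump, Kmt2a a histone methyltransferase, Arnt2 a basic helix-loop-helix factor and Piezo2 a mechanosensitive channel. Those most like Pln were Prep (0.996), Pi4kb (0.992), Mrps22 (0.989), Ssx2ip (0.988) and Myl2 (0.986). Prep encodes a prolyl peptidase, Pi4kb a lipid kinase, Mrps22 a mitochondrial ribosomal protein and Myl2 the ventricular myosin light chain. With 6 arrays and this many genes, values of this size are a ranking and not a test. Because Sln separates the genotypes, its ranking favours genes that do so too, and all 5 had a higher mean in KO hearts.

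Calcium handling was followed further in 5 lists of genes by role, in which 63 measured genes were not among the 10. 31 of these had higher and 32 lower means in KO hearts, with a median difference of 0.00. Without KO replicate 1, 25 were higher and 38 lower, with a median of -0.05. None of the 63 passed limma's adjusted test, and 4 had an unadjusted p under 0.05, beside 5.93% of all clusters. 12 of the 63, or 19.0%, did not overlap between the groups, 3 of them higher and 9 lower, beside 12.6% of all clusters. The genes named below are those with the lowest p in their list, and Atp2b1.

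Among 8 other genes of calcium uptake and storage, 3 had higher and 5 lower means in KO hearts, with a median of -0.04. Atp2a1, which encodes the fast skeletal muscle calcium pump, had 6.62, 6.50 and 6.76 in KO hearts, against 6.15, 6.13 and 6.43 in WT hearts. The groups did not overlap, and the difference was 0.39 ± 0.12 (SE; limma adjusted p = 0.797). Atp2a3, the pump gene of blood and endothelial cells, had 7.91, 6.68 and 6.55 in KO hearts, against 6.52, 6.45 and 6.53 in WT hearts. KO replicate 1 carried most of its difference of 0.55 ± 0.32 (SE). The part of blood cells in that value was not tested. The luminal calcium-binding protein gene Srl, sarcalumenin, differed by -0.12 ± 0.09 and Mrln, which encodes the skeletal pump inhibitor myoregulin, by -0.14 ± 0.12 (SE). Without KO replicate 1 the difference of Atp2a3 was 0.12 and that of Atp2a1 0.40. Both pump genes lay wholly above the WT hearts, as 6.01% of all clusters did.

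Among 15 other genes of the release complex and its junction, 6 had higher and 9 lower means, with a median of -0.03. 4 lay wholly below the WT hearts, beside 6.61% of all clusters, and 0 wholly above. Without KO replicate 1, 4 had higher and 11 lower means, with a median of -0.07. Speg, a kinase gene of the junction, differed by -0.27 ± 0.10 (SE; limma adjusted p = 0.797). The calmodulin gene Calm3 differed by -0.19 ± 0.13 (SE), and by -0.05 without KO replicate 1. Differences were -0.12 ± 0.08 for the ryanodine receptor-binding immunophilin gene Fkbp1a and -0.14 ± 0.09 for sorcin, Sri (SE). Of 11 other genes of L-type and T-type channels, 9 had higher and 2 lower means, with a median of 0.17, but without KO replicate 1 the counts were 6 and 5 and the median 0.0075. Cacna1g, a T-type pore gene, had 6.86, 7.02 and 7.38 in KO hearts, against 6.54, 6.33 and 6.98 in WT hearts. The groups overlapped, and the difference was 0.47 ± 0.19 (SE; limma adjusted p = 0.797). Gem, which encodes a small GTPase that inhibits L-type current, differed by 0.36 ± 0.21, the skeletal pore gene Cacna1s by 0.25 ± 0.12 and the auxiliary subunit gene Cacna2d3 by 0.28 ± 0.14 (SE). Without KO replicate 1 these 3 stood at 0.10, 0.15 and 0.18, and Cacna1g at 0.58.

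Of 13 other genes of calcium extrusion and entry at the surface, 8 had higher and 5 lower means, with a median of 0.06, or 7 and 6 with a median of 0.02 without KO replicate 1. The store-operated channel gene Orai1 differed by -0.23 ± 0.10 and the plasma membrane pump gene Atp2b3 by -0.21 ± 0.10 (SE). The exchanger gene Slc8a2 differed by -0.16 ± 0.09 (SE). These 3 lay wholly below the WT hearts, beside 6.61% of all clusters. 1 of the 13 lay wholly above, beside 6.01% of all clusters. It was Atp2b1, another plasma membrane pump gene, with a difference of 0.13 ± 0.09 (SE). Trpc6, a cation channel gene, differed by 0.20 ± 0.11 (SE), with overlap, and by 0.12 without KO replicate 1. Of 16 regulators, 5 had higher and 11 lower means, with a median of -0.06. 2 of the 16 lay wholly below the WT hearts, beside 6.61% of all clusters, and 0 wholly above. Ppp1r1a, an inhibitor of protein phosphatase 1, differed by -0.28 ± 0.12 (SE; limma adjusted p = 0.797) without overlap, and by -0.17 without KO replicate 1. The glycogen-targeting phosphatase subunit gene Ppp1r3a differed by -0.28 ± 0.14, the adenylyl cyclase gene Adcy5 by -0.13 ± 0.09 and the kinase gene Camk2a by -0.14 ± 0.11 (SE). 12 further genes of these lists were not analysed here.

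**Figure D5:**
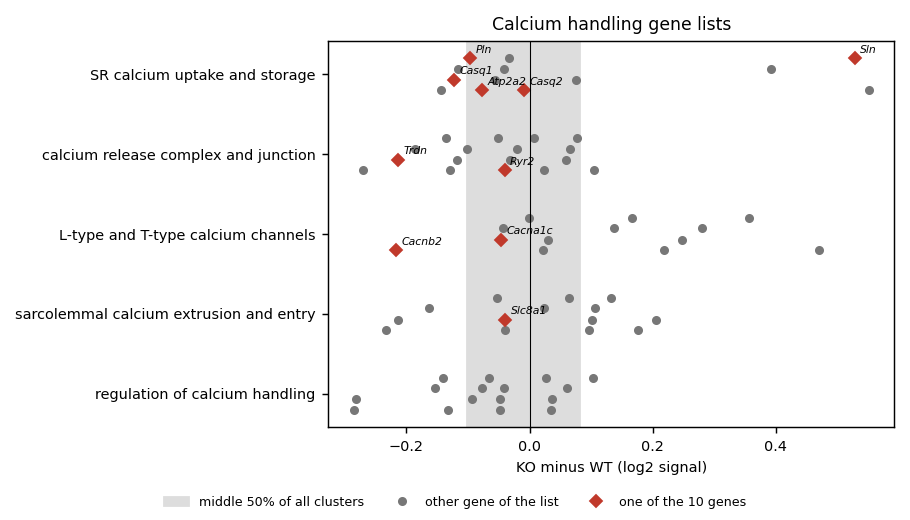
KO minus WT difference in log2 signal (horizontal axis) of every measured gene in 5 calcium handling lists (rows). Red diamonds are the 10 genes of this set, grey circles the other 63 genes, and the grey band spans the middle 50% of all clusters, from -0.10 to 0.08. Sln lies at 0.53 and the channel list has 9 of its 11 other genes above 0, or 6 without KO replicate 1.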

How the data were processed

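Per the labels' protocols, Trizol was used to extract the RNA of the 6 samples and biotin to label it, with 1 array each. The authors deposited log2 signals made with RMA (robust multi-array average), per the submitters' processing notes, and their log2 scale was read from the value range. Neither its version nor a filter or probe annotation is given in the sources used here. All 28767 clusters were compared, KO against WT, with limma 3.58.1 in R 4.3.3 (lmFit, eBayes, no covariate, two-sided), with Benjamini-Hochberg adjustment over all clusters, a threshold of 0.05 and no filter. The script was tested on simulated data. Within-array differences were tested by exact permutation.

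21776 clusters carried 1 gene symbol, 1618 several and 5373 none. Symbols were updated by Entrez identifier for 21686. Named genes were the 10 genes, Itgb1, the 4 lowest p of each pathway list, the 5 genes most like Sln and Pln, and marker counts with values for 8 fixed markers. Myl3, Myl4, Hey2, Kcne1, Myh3, Mpeg1, Lyz2 and Atp2b1 were named after their values were seen. The genes and lists were chosen with earlier results of these data known. P-values measure the spread between samples that the design text calls biological replicates. The alternatives were other normalizations, centrings, variance models, array weights, leaving out dim clusters, 1 cluster for each gene, a replicate block and leaving out each heart.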

Additional observations from a re-analysis of the deposited data

How the results depend on the processing

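With 3 hearts per genotype, differences of the size of most of these 10 genes lie within the standard error. The count of called clusters was 0 in the main setting and in all alternatives (1508 to 3650 clusters at an unadjusted p under 0.05 in the fits of all hearts and all clusters) except without KO replicate 1, where it was 1. That 1 cluster is none of the 10 genes. Sln kept its direction in all of its 14 alternatives, from 0.45 to 0.62, and none of the 10 genes passed the adjusted test in any alternative, where the lowest adjusted p of Sln was 0.199 and the highest 0.994. Pln, Trdn and Cacnb2 kept their direction too, between -0.16 and -0.02, -0.31 and -0.14, and -0.27 and -0.14. The filter on dim clusters left out Sln and Cacnb2.

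Centring on the cardiomyocyte markers moved every difference up by the same amount, and the median of all clusters to 0.07. By that construction the difference became 0.00028 for Atp2a2, 0.037 for Ryr2, 0.069 for Casq2, 0.039 for Slc8a1 and 0.031 for Cacna1c. With cyclic loess Casq2 stood at 0.012. Without 1 heart at a time, the values ran from -0.099 to 0.008 for Ryr2, -0.28 to 0.044 for Casq1, -0.17 to 0.14 for Casq2, -0.094 to 0.0057 for Slc8a1 and -0.11 to 0.0022 for Cacna1c. The single Trdn cluster with a higher KO mean stood at 0.046. Sln minus Pln ranged from 0.52 to 0.75, Sln minus Atp2a2 from 0.52 to 0.72, Sln minus the atrial mean from 0.42 to 0.56 and Pln minus Atp2a2 from -0.038 to 0.017 without 1 heart. The cause of the turns other than those of the marker centring was not tested. The counts of the pathway lists without KO replicate 1 are an alternative chosen after seeing the data.

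Deviations of same-numbered hearts correlated at -0.04, -0.03 and -0.06 over all clusters, so no pairing by replicate number was seen there. A correlation over all clusters cannot exclude a pairing that touches few genes. Sln had the same order of replicates in both genotypes, and Casq1 had opposite orders. The fit with the replicate block called 0 clusters, with 1508 at an unadjusted p under 0.05, and paired sign-flip tests of the within-array differences gave an exact p of 0.25 for those with Sln, the smallest that 3 pairs allow, and 0.75 for Pln minus Atp2a2.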
